A study of Rattus norvegicus with 26 samples.

Results

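The channel genes described here code for potassium, calcium, sodium and chloride channels, transient receptor potential (TRP) channels and the calcium release channels of internal stores, together with the accessory subunits of several of them. They were taken from the gene probes of a rat whole-genome array by the start of the gene symbol (Kcn, Cacn, Scn, Scnn, Clcn, Trpc, Trpm, Trpv, Ryr and Itpr), which matched 165 gene names. For each gene the probe with the highest mean signal was kept, and the gene was retained when this probe was well above background, by the scanner software's own call, on all arrays of at least 1 group. This left 76 genes of the 165, among 35287 gene names on the array. Trpc4ap entered through its name, although it codes for a protein that binds a TRPC channel and not for a channel.

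The cells were rat multipotent adult progenitor cells (rMAPCs), in the form of 2 Oct4-expressing clones. Both came from bone marrow of female Fischer rats, clone Cl19 from 3-week-old animals and clone 3c3 from E18, so each line is a single clone. They were cultured in serum-free basal rMAPC medium with TGFβ1 and PDGF-BB, growth factors that steer progenitors toward smooth muscle, and RNA was taken before treatment (d0) and on d2, d4 and d6, with 3 arrays for each clone and day. The comparison sample was 2 arrays of a commercial rat RNA, described by the labels as aortic RNA and by the methods as RNA of primary smooth muscle cells (SMCs), which is called primary SMCs here. No group without the growth factors was followed over the same days, so growth factors, medium and days in culture cannot be told apart.

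Ion channels set the membrane potential and the entry of calcium that makes smooth muscle contract. Depolarisation opens voltage-gated calcium channels, and inositol trisphosphate receptors and ryanodine receptors release calcium from internal stores, while potassium channels bring the membrane back toward rest. TRP channels and the epithelial sodium channel carry depolarising current, and chloride channels and transporters act at the plasma membrane or in intracellular vesicles. In cultured vascular SMCs, channels of contractile cells are known to give way to others, such as the intermediate-conductance calcium-activated potassium channel Kcnn4.

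Levels below are log2 signals after quantile normalization, so that 1 unit is a 2-fold difference, and changes are differences of these levels with their standard errors. A gene is said to have risen or fallen where limma, fitted once over the 26 arrays, gave an adjusted p below 0.05 over 24442 tested probes. Levels near 0 lie in the background and have no order among themselves. The 26 arrays showed from 41.6% to 53.2% of all gene probes well above background throughout a group, and no saturated feature. Each clone and the primary RNA had slides and a scan day of its own, and each day had its own position on the slide, so neither can be told apart from the groups. On d2, the Cl19 array of replicate 1 lay nearer to the 3c3 d2 arrays (root mean square distance 0.382 to 0.538) than to the other d2 arrays of its own clone (0.876 and 0.917), and the results that rest on it are given with and without it. The 4 arrays of 3c3 replicate 3, which shared a slide, had a negative control signal of 28.3 to 44.5 against 10.9 to 14.0 on the other arrays, and calls of genes named here that are lost without that replicate are marked so. Smooth muscle contractile markers were well above background for 9 of 9 tested genes in primary SMCs. By d6, 6 of them rose in each clone, and 1, Myocd, fell in 3c3 within dim values (-1.2, limma adjusted p = 0.004). Cardiac markers rose for 3 of 4 genes in each clone. Of 7 endothelial markers, 0 were well above background throughout primary SMCs, 2 throughout Cl19 d6 and 3 throughout 3c3 d6. For 6 leukocyte markers these counts were 4, 3 and 4, and for 5 fibroblast markers 5, 4 and 2. The part of such cells in the results was not tested. In bulk RNA, fewer cells of a type and less RNA per cell cannot be told apart.

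Of the 76 channel genes, 20 were well above background in all 9 groups, 11 in 1 group only, and 5 of these 11 only in primary SMCs. Cl19 had 56 of them well above background throughout d0 and 60 throughout d6. In 3c3 the numbers were 43 and 39, and in primary SMCs 46. The share of all gene probes moved likewise, from 51.1% to 52.6% in Cl19 and from 48% to 42.1% in 3c3, with 41.6% in primary SMCs. On the 4 single arrays of 3c3 replicate 3, 43.2% to 51.8% of gene features were well above background. These are shares of 1 array each and are not of like measure with the group shares, which require all arrays of a group. A gene that was retained through the 1 group where it is high had to differ from the others, so the counts below describe the 76 genes and are not support for a trend.

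From d0 to d6, 24 of the 76 genes rose and 13 fell in Cl19. These are 31.6% and 17.1% of the 76, beside 22% and 30.3% of all tested probes. In 3c3, 23 rose (30.3%) and 6 fell (7.89%), beside 19.7% and 28.6% of all tested probes. The median change of the 76 genes was 0.25 in Cl19 and 0.34 in 3c3, against -0.20 and -0.21 over all tested probes. Over all 4 days, 48 genes changed in Cl19 (54.3% of all tested probes did) and 36 in 3c3 (50%). The latter count was 23 without 3c3 replicate 2 and 24 without replicate 3, where 19 genes rose and 3 fell by d6. Without the Cl19 d2 array that stood apart the counts over time were 47 and 37. In the submitters' own table, which is not scaled between arrays, the median of all tested probes was 0.10 in Cl19 and 0.09 in 3c3, that of the channel genes 0.71 and 0.69, and 28 genes rose and 2 fell in 3c3. The count for each family is read from the plot of changes by family.

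**Figure D1:**
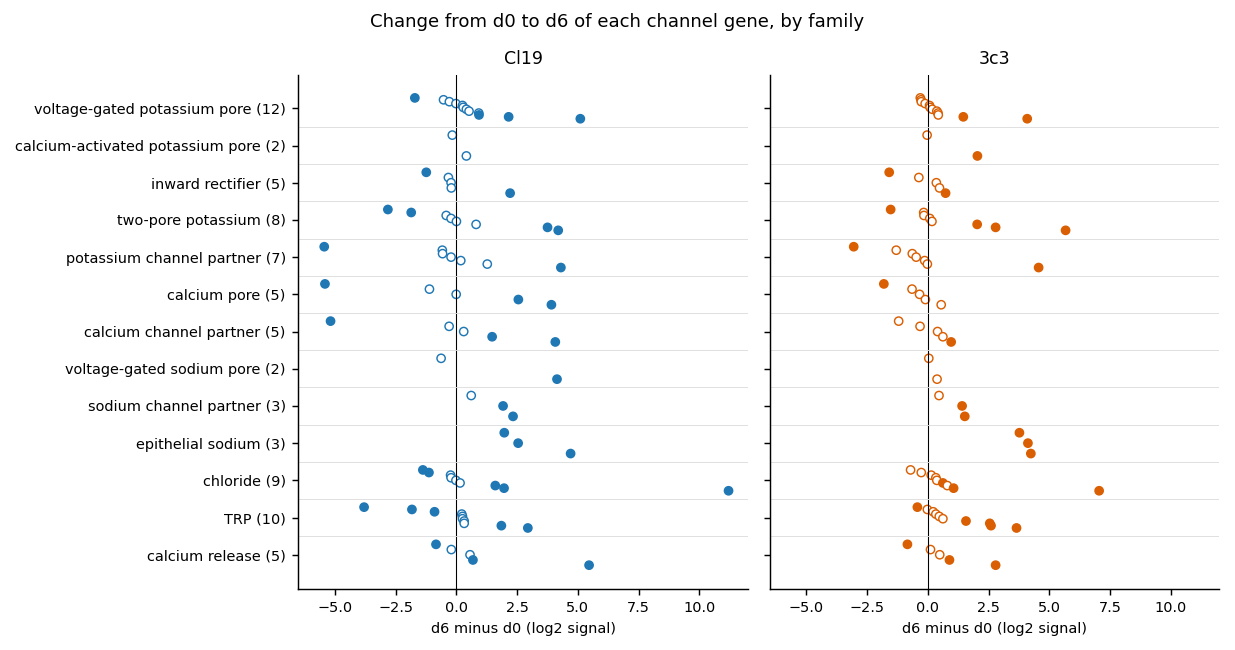
Change in log2 signal from d0 to d6 (x axis) of each of the 76 channel genes, in rows by family with the number of genes in brackets, for Cl19 (left) and 3c3 (right). Filled points passed limma's adjusted p of 0.05 and open points did not, and all 3 epithelial sodium channel genes lie to the right of 0 in both clones.

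The clearest group was the epithelial sodium channel. This channel is built of an alpha, a beta and a gamma subunit, and it takes up sodium across the apical membrane of kidney, lung and colon epithelium. All 3 subunit genes rose in both clones. Scnn1a, the alpha subunit (probe at chr4:161468845-161468904, rn4), read 5.79, 5.46 and 5.71 on d0 and 10.43, 10.01 and 10.60 on d6 in Cl19, and 5.34, 4.90 and 5.24 against 9.06, 9.67 and 9.13 in 3c3. No d6 array overlapped a d0 array in either clone, and the rise was 4.70 ± 0.32 in Cl19 (limma adjusted p = 6.6e-10) and 4.12 ± 0.32 in 3c3 (adjusted p = 6.2e-09). Another probe for Scnn1a gave 4.22 and 4.87. Scnn1b, the beta subunit, rose by 2.54 ± 0.56 in Cl19 (adjusted p = 0.00074) and by 4.24 ± 0.56 in 3c3 (adjusted p = 4.8e-06). Its d0 arrays lay between 3.97 and 4.16 in Cl19 and its d6 arrays between 6.23 and 7.19. Scnn1g, the gamma subunit, lay in the background on each d0 array of both clones. By d6 its signal had risen at least 1.56-fold in Cl19 and 3.68-fold in 3c3. Being at background on d0 and in primary SMCs, Scnn1g was retained through the clones after d0 alone. A rise after d0 and a lower level in primary SMCs were therefore favoured by its selection. In primary SMCs neither Scnn1b nor Scnn1g was well above background on any array and Scnn1a read 4.24 and 4.12, and all 3 were lower in primary SMCs than on d6 in both clones. For Scnn1g against Cl19 this call was lost with scaling to the 75th percentile (-0.71, adjusted p = 0.37) or normexp correction (-0.16, adjusted p = 0.23) and turned in sign with a floor for dim probes (0.77, adjusted p = 0.25), and against 3c3 it was lost with that floor (-0.78, adjusted p = 0.26). All 6 tested epithelial marker genes rose in Cl19 and 5 of 6 in 3c3 over the same days, and their part in this was not tested.

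**Figure D2:**
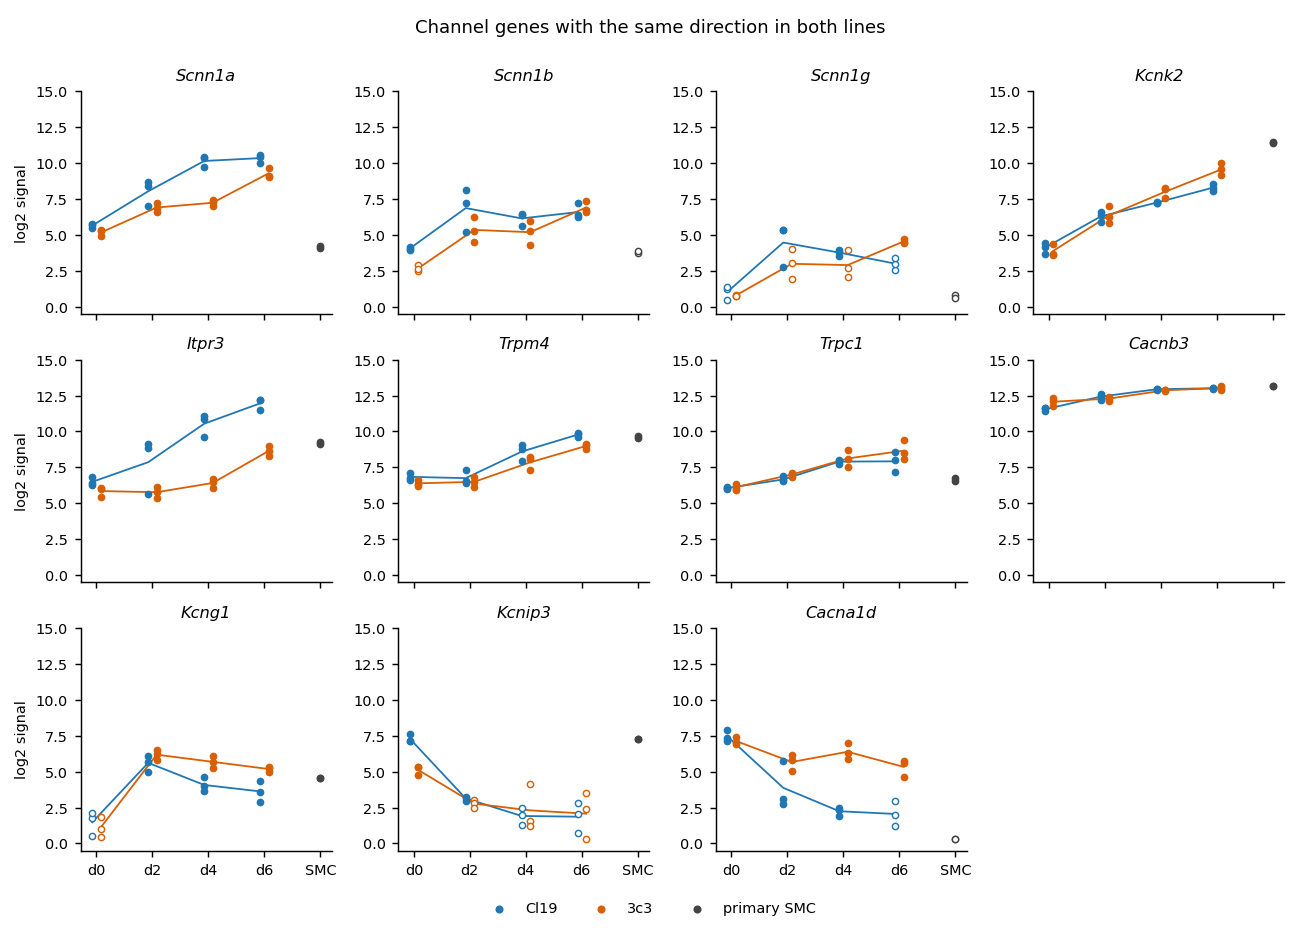
Log2 signal (y axis) of 11 channel genes on d0, d2, d4 and d6 in Cl19 (blue) and 3c3 (orange) and in primary SMCs (SMC, grey). Each point is 1 array, lines join the group means, and filled points belong to groups in which every array was well above background. The 3 epithelial sodium channel genes end above their d0 level in both clones, and Kcnip3 and Cacna1d end below it.

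The promoters of 52 of the 76 genes matched the RefSeq table of build GRCr8, and 6 of the 12 genes that rose in both clones were among them. Among these 6, Scnn1g and Scnn1b code for subunits of 1 channel and lie near each other on chromosome 1. Itpr3 and Trpm4 code for a calcium release channel and a channel opened by intracellular calcium. The 250 bases before the start are shown for these 4 of the 6 genes. Their positions are chr1:185735975-185736224 on the plus strand for Scnn1g, chr1:185861126-185861375 on the plus strand for Scnn1b, chr20:5138562-5138811 on the plus strand for Itpr3 and chr1:104948237-104948486 on the minus strand for Trpm4. Capitals mark CAGAC or its reverse complement GTCTG, the short element bound by SMAD proteins, the transcription factors activated by TGFβ.
Scnn1g: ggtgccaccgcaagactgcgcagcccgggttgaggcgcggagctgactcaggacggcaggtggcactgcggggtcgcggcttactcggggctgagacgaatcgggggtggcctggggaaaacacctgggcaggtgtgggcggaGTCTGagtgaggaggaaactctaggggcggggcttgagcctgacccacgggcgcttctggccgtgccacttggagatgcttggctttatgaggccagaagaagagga
Scnn1b: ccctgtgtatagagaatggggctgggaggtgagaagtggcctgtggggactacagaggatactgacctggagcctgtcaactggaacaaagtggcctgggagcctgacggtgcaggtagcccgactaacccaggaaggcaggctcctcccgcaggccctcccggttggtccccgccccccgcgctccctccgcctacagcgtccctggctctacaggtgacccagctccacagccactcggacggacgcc
Itpr3: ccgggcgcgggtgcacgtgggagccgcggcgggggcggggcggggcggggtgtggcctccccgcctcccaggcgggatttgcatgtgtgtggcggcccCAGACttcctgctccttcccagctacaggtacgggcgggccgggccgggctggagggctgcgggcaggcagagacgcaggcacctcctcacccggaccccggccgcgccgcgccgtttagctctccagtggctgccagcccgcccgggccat
Trpm4: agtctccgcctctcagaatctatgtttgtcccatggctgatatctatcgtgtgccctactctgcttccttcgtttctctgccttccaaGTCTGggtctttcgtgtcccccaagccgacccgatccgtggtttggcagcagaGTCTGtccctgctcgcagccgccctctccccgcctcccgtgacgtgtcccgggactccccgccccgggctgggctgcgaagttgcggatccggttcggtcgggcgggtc
Counted on both strands, at least 1 such element was present in 3 of the 6 promoters (Itpr3, Scnn1g and Trpm4) and in 26 of the 52. Of 33469 promoters of the same length, 14369 held at least 1 (42.9%). Cacnb3 and Kcnk2, the genes of the 6 that are not shown, held 0. The serum response factor element of contractile genes, the CArG box, was searched on 1 strand, its own complement being of the same form, and matched 0 of the 52 against 501 of the 33469 (1.5%). A match of letters is no measured site, and its absence from this window says nothing on the factor.

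Of the 9 chloride channel and transporter genes, 3 rose and 2 fell in Cl19, and 3 rose in 3c3. Over all tested probes 22% rose and 30.3% fell in Cl19, and 19.7% rose and 28.6% fell in 3c3. Clcn3, a chloride and proton exchanger of endosomes, rose by 1.96 ± 0.20 in Cl19 (adjusted p = 9.3e-08) and changed by 0.33 ± 0.20 in 3c3 (adjusted p = 0.18; 0.64 and 0.025 in the submitters' own table).

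In the 8 two-pore potassium channel genes, which give the resting potassium leak, 2 rose and 2 fell in Cl19 and 3 rose and 1 fell in 3c3. The shares over all tested probes were 22% and 30.3% in Cl19 and 19.7% and 28.6% in 3c3. Kcnk2 (TREK-1), a leak channel opened by stretch and lipids, had a higher mean on each later day in both clones (in Cl19 on d2 6.29, and 6.25 without the array that stood apart). In Cl19 it read 4.19, 4.41 and 3.69 on d0 and 8.56, 8.26 and 8.04 on d6, and in 3c3 4.38, 3.68 and 3.61 against 9.98, 9.56 and 9.14. The rises of 4.19 ± 0.30 (adjusted p = 1.4e-09) and 5.67 ± 0.30 (adjusted p = 4.9e-11) left it below the level in primary SMCs, 11.42 and 11.50. In the submitters' own table the primary level was below that of 3c3 on d6, so the direction against 3c3 depends on the scaling. Kcng1, a silent subunit that modifies other potassium channels, went from background on d0 to its highest level on d2 (6.12, 5.0 and 5.70 in Cl19; 6.51, 5.83 and 6.21 in 3c3). The Cl19 mean on d2 was 5.61, and 5.35 without the array that stood apart. By d6 it stood at 3.58, 4.38 and 2.90 in Cl19 and at 4.97, 5.28 and 5.31 in 3c3, at least 2.40-fold and 5.71-fold above d0. With a normexp background correction the Cl19 rise missed the threshold (adjusted p = 0.11).

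Calcium channel genes moved in both directions. Cacnb3, a beta subunit that brings voltage-gated calcium channels to the membrane, was bright throughout and rose by 1.47 ± 0.13 in Cl19 (adjusted p = 2.9e-08) and by 0.96 ± 0.13 in 3c3 (adjusted p = 9.8e-06), to 12.96 to 13.04 and 12.91 to 13.15 on d6. Primary SMCs read 13.15 and 13.14. Cacna1d, the pore of an L-type channel of neurons, heart and endocrine cells, read 7.35, 7.88 and 7.15 on d0 in Cl19 and 2.01, 2.92 and 1.22 on d6, a fall by 5.41 (SE 0.58, adjusted p = 2.3e-07). In 3c3 it fell by 1.81 (SE 0.58, adjusted p = 0.014), a call lost without any 1 of the 3 replicates (adjusted p from 0.052 to 0.11). A second Cacna1d probe gave -3.53 in Cl19 and -2.96 in 3c3, while a dimmer one gave 2.92 and 1.20. Cacnb2, another beta subunit, was at 6.28, 6.28 and 6.32 on d0 in Cl19 and not above background on d6, at least 20.6-fold lower. In 3c3 it changed by -1.20 ± 1.01 (adjusted p = 0.35), where d6 replicate 3 stood at 5.35 against 0.98 and 1.99 in the others, and without replicate 3 the change was -2.46 (adjusted p = 0.0055).

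Calcium release channels were led by Itpr3, an inositol trisphosphate receptor. It rose from 6.42, 6.25 and 6.81 to 11.46, 12.22 and 12.19 in Cl19 (5.46 ± 0.61, adjusted p = 3.4e-07) and from 6.02, 5.45 and 6.07 to 8.30, 8.67 and 8.96 in 3c3 (2.79 ± 0.61, adjusted p = 0.0008). A second Itpr3 probe gave 5.56 and 2.67. Itpr2, a second receptor of this type, fell by 0.84 in Cl19 (SE 0.26, adjusted p = 0.011), a call lost without Cl19 replicate 1 (-0.66, adjusted p = 0.063) or replicate 3 (-0.76, adjusted p = 0.081), in the submitters' own table (-0.37, adjusted p = 0.36), with normexp correction (-0.11, adjusted p = 0.15) and in the mean over its probes (-0.54, adjusted p = 0.26). In 3c3 it changed by 0.49 ± 0.26 (adjusted p = 0.13; 0.93 and 0.02 in the submitters' own table, 0.2 and 0.012 with normexp). Ryr1 and Ryr2 code for ryanodine receptors of skeletal and cardiac muscle. Ryr1 rose by 0.89 ± 0.24 in 3c3 (adjusted p = 0.0048; 0.76 and 0.054 without replicate 2, 0.38 and 0.13 in the mean over its probes) and changed by 0.56 ± 0.24 in Cl19 (adjusted p = 0.06). Its 4 tested probes, of 6, gave changes from -0.39 to 0.57 in Cl19. Ryr2 fell by 0.84 in 3c3 (SE 0.25, adjusted p = 0.01), a call lost without replicate 3 (-0.68, adjusted p = 0.097) and in the mean over its probes (0.18, adjusted p = 0.4). This call was also lost in the submitters' own table (-0.46, adjusted p = 0.18), with normexp correction (-0.08, adjusted p = 0.21) and with a floor for dim probes (-0.31, adjusted p = 0.52).

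Of the 10 TRP genes, 2 rose and 3 fell in Cl19, and 4 rose and 1 fell in 3c3. The shares over all tested probes were 22% and 30.3% in Cl19 and 19.7% and 28.6% in 3c3. Trpm4, a cation channel opened by intracellular calcium that depolarises vascular smooth muscle, read 6.76, 6.64 and 7.12 on d0 and 9.88, 9.85 and 9.60 on d6 in Cl19, and 6.61, 6.21 and 6.35 against 9.13, 8.80 and 9.05 in 3c3. It rose by 2.94 ± 0.28 (adjusted p = 5.5e-08) and 2.60 ± 0.28 (adjusted p = 4.6e-07), with primary SMCs at 9.65 and 9.57. The difference from d6 was -0.16 ± 0.32 for Cl19 and 0.62 ± 0.32 for 3c3 (primary SMCs minus d6), neither past the threshold. Trpc1, a cation channel linked to calcium entry after store release, rose by 1.85 ± 0.33 in Cl19 (adjusted p = 8.7e-05) and by 2.55 ± 0.33 in 3c3 (adjusted p = 3.7e-06). Trpm7, a channel fused to a kinase that conducts magnesium, fell by 0.90 in Cl19 (SE 0.12, adjusted p = 4.8e-06) and by 0.43 in 3c3 (SE 0.12, adjusted p = 0.0069), the latter a call lost without replicate 3 (-0.38, adjusted p = 0.075) and in the submitters' own table (-0.10, adjusted p = 0.68).

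Kcnk12, a two-pore family member, rose from background at least 4.26-fold in Cl19 and 1.61-fold in 3c3. In all, 12 genes rose and 4 fell in both clones, 15.8% and 5.26% of the 76, beside 13.2% and 20.4% of all tested probes. The falling genes were Cacna1d, Trpm7, Kcnip3 and Kcnj14. Kcnip3, a calcium sensor that binds Kv4 channels and also acts as a transcriptional repressor, read 7.15, 7.11 and 7.65 on d0 in Cl19 and 2.02, 2.84 and 0.74 on d6, and fell by 5.44 (SE 0.70, adjusted p = 2.2e-06). In 3c3 it fell by 3.05 (SE 0.70, adjusted p = 0.0013), from 5.29, 5.29 and 4.78 to 2.39, 0.29 and 3.53. Kcnj14, an inward rectifier, fell by 1.24 in Cl19 (SE 0.40, adjusted p = 0.014), with d6 replicate 3 at 8.23 within the d0 range. This call was lost without replicate 1 (-0.95, adjusted p = 0.12) or replicate 2 (-1.05, adjusted p = 0.085) and in the submitters' own table (-0.92, adjusted p = 0.078). In 3c3 it fell by 1.59 (SE 0.40, adjusted p = 0.0029).

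The change from d0 to d6 differed between the clones for 20 of the 76 genes, beside 17.4% of all tested probes, and for 23 without the Cl19 d2 array that stood apart. In 9 of the 20 the change was more upward in Cl19 and in 11 more upward in 3c3. These differences compare changes within a clone, while a difference in level between the clones cannot be told apart from their slides and scan days.

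**Figure D3:**
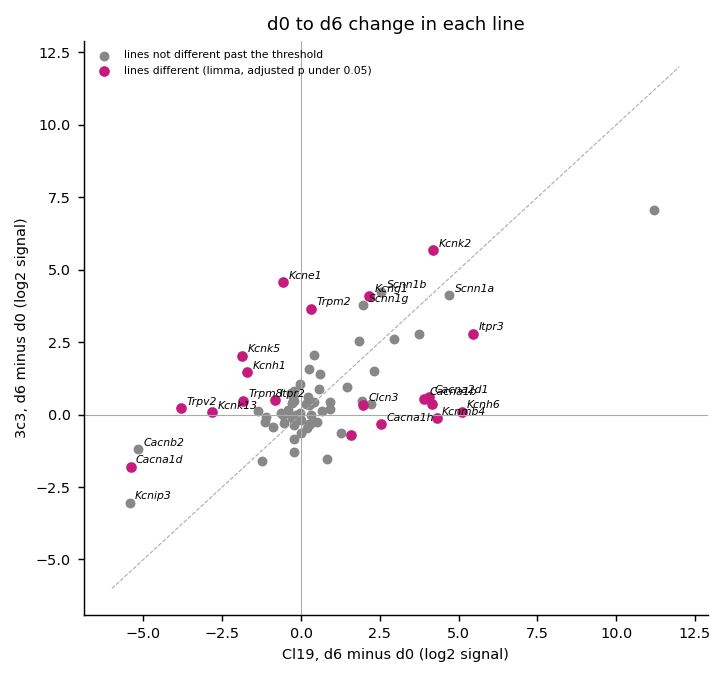
Change in log2 signal from d0 to d6 in Cl19 (x axis) against 3c3 (y axis) for the 76 channel genes, 1 point a gene, with equal change on the dashed line. The 20 genes whose change differed between the clones (magenta) include Kcnk5 and Kcnh1, which fell in Cl19 and rose in 3c3.

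Trpv2, a cation channel opened by stretch, read 10.65, 10.68 and 10.48 on d0 in Cl19 and 6.65, 6.20 and 7.56 on d6, below all d0 arrays. In 3c3 it stood at 10.44, 10.54 and 10.68 on d0 and at 10.99, 10.42 and 10.91 on d6, overlapping. The fall of 3.80 in Cl19 and the change of 0.22 in 3c3 differed by -4.02 (adjusted p = 8.1e-07). Kcnk5, a two-pore channel opened by alkaline pH, fell by 1.86 in Cl19 (adjusted p = 2.7e-05), from 11.68, 11.86 and 11.90 to 9.96, 9.57 and 10.34. It rose by 2.03 in 3c3 (adjusted p = 1.5e-05), from 11.51, 11.18 and 11.46 to 12.96, 13.80 and 13.49, a difference of -3.89 (adjusted p = 2.7e-06). Kcnh1, a voltage-gated potassium channel known for its expression in tumours, also fell by 1.71 in Cl19 and rose by 1.46 in 3c3 (difference -3.16, adjusted p = 0.001).

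Several channel genes rose in Cl19 without passing the threshold in 3c3. Kcnmb4, a beta subunit of the large-conductance calcium-activated potassium channel, read 4.05, 3.57 and 3.54 on d0 and 7.98, 8.52 and 7.55 on d6 in Cl19, and 4.92, 4.97 and 4.92 against 5.51, 4.70 and 4.19 in 3c3. The changes of 4.30 ± 0.36 and -0.13 ± 0.36 differed by 4.43 (adjusted p = 4.8e-06). Cacna2d1, which raises the number of calcium channels at the membrane, rose by 4.07 ± 0.28 in Cl19 to 7.79, 8.16 and 7.18 and changed by 0.62 ± 0.28 in 3c3 (adjusted p = 0.081) to 4.63, 4.93 and 3.80, a difference of 3.46 (adjusted p = 6.2e-06). The 3c3 change passed the threshold without replicate 3 (0.97, adjusted p = 0.023), with scaling to the 75th percentile (0.75, adjusted p = 0.035), with a floor for dim probes (0.75, adjusted p = 0.022) and in the submitters' own table (1.06, adjusted p = 0.0082). Primary SMCs read 9.80 and 9.87, above both clones, although in the submitters' own table they lay 0.30 below Cl19 on d6 (adjusted p = 0.43). Cacna1h, a low-voltage-activated calcium pore, rose by 2.55 ± 0.54 in Cl19 and changed by -0.34 ± 0.54 in 3c3 (difference 2.89, adjusted p = 0.011; 2.72 and 0.051 without 3c3 replicate 2). Kcnh6, a relative of the cardiac repolarising channel, was at 0.30, 0.28 and 0.28 on d0 in Cl19. On d6 it read 4.87, 6.14 and 5.14, at least 8.15-fold higher, and it was not above background on any array of 3c3 or primary SMCs. Kcnh6 was thus retained through Cl19 after d0 alone, so a rise there and a difference from 3c3 were fixed by its selection.

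The reverse pattern was that of Kcne1, a partner of cardiac repolarising potassium channels. In 3c3 it was not above background on d0 and read 5.84, 5.92 and 5.88 on d6, a rise of at least 9.27-fold (adjusted p = 1.3e-06), whereas in Cl19 it read 4.67, 4.72 and 4.77 on d0 and 3.87, 3.86 and 4.72 on d6 (adjusted p = 0.4). The difference was -5.13 (adjusted p = 8.4e-05). Kcnk13, a two-pore channel, fell by 2.82 in Cl19 (adjusted p = 0.00012), from 10.12, 10.19 and 10.07 to 6.35, 8.35 and 7.21, and changed by 0.08 in 3c3 (difference -2.91, adjusted p = 0.0079; -2.74 and 0.062 without 3c3 replicate 2).

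**Figure D4:**
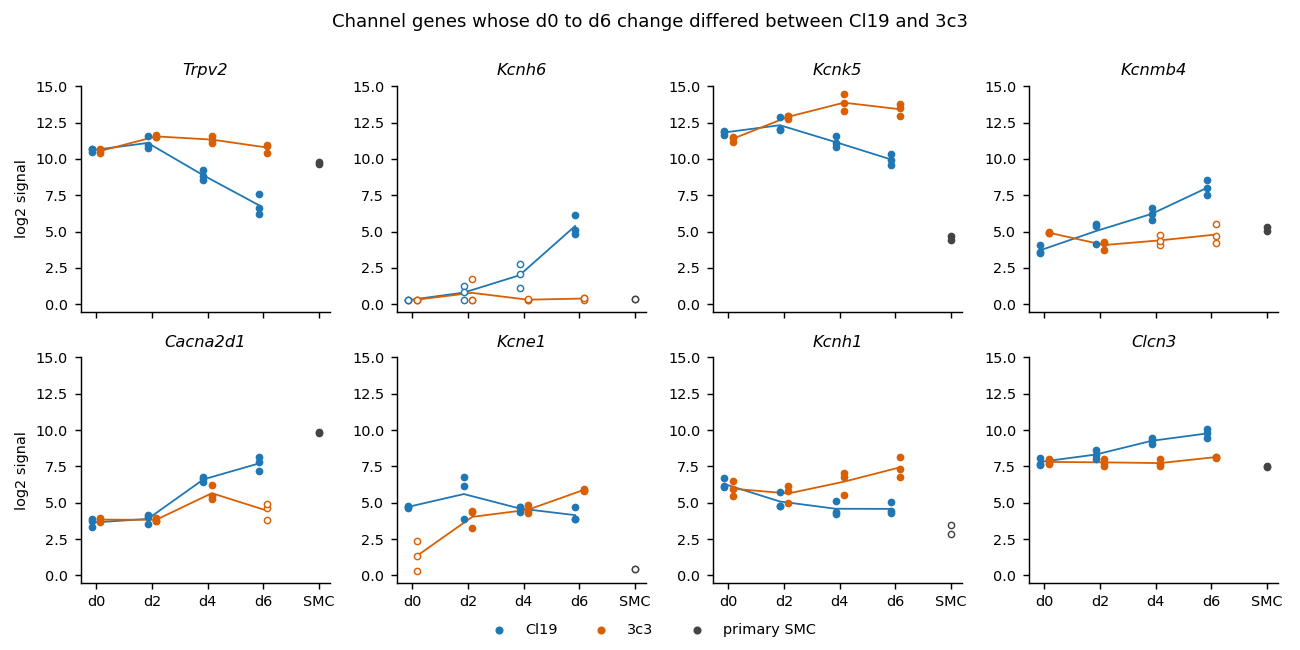
Log2 signal (y axis) of 8 channel genes whose change from d0 to d6 differed between the clones, by day in Cl19 (blue) and 3c3 (orange) and in primary SMCs (SMC, grey). Points are single arrays, lines join group means, and filled points mark groups with every array well above background. Trpv2, Kcnk5 and Kcnh1 end lower in Cl19 than in 3c3, and Kcnh6, Kcnmb4, Cacna2d1 and Clcn3 end higher.

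On d2, 14 genes were higher and 9 lower than on d0 in Cl19 (11.2% and 11.5% of all tested probes), and 12 were higher and 2 lower in 3c3 (9.8% and 9.27%). Without the Cl19 array that lay near the 3c3 arrays, the Cl19 counts were 15 and 10 and the 3c3 counts 12 and 4. The lower Cl19 count was 4 without replicate 2 and the higher one 7 without replicate 3. In 3c3, the higher count was 6 without replicate 1 and 7 without replicate 3, and the lower count 0 without replicate 1. The epithelial sodium channel genes were among those that rose early. In Cl19, Scnn1a had risen by 2.39 on d2 (2.90 without that array), Scnn1b by 2.82 (3.63) and Scnn1g by 3.44 (4.31). In 3c3 the 3 rises on d2 were 1.75, 2.68 and 2.21, the last not past the threshold without replicate 1 (1.74, adjusted p = 0.12) or replicate 3 (2.16, adjusted p = 0.084). Scnn1b and Scnn1g had their highest mean in Cl19 on d2, at 6.87 and 4.47 (7.68 and 5.34 without that array), and in 3c3 on d6. Itpr3 changed by 1.37 on d2 in Cl19 with that array (adjusted p = 0.12) and rose by 2.49 without it (adjusted p = 5.7e-05). Kcnip3 had fallen by 4.17 on d2 in Cl19 (4.09 without it, adjusted p = 0.00081) and by 2.35 in 3c3 (adjusted p = 0.023), the latter a call lost without replicate 1 (adjusted p = 0.13).

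Both comparisons with primary SMCs used the same 2 primary arrays. Of the 76 genes, 28 were higher and 31 lower in primary SMCs than in Cl19 on d6 (32.8% and 38.6% of all tested probes), and 29 were higher and 28 lower than in 3c3 on d6 (33.4% and 38.1%), shares close to those of the whole array. The split rests on the scaling. In the submitters' own log2 table, in which the median of all tested probes lay 2.17 and 2.09 lower in primary SMCs, the counts were 9 higher and 47 lower against Cl19 and 10 higher and 43 lower against 3c3, and 13 of the 28 and 13 of the 29 higher genes turned in sign. With scaling to the 75th percentile the counts were 31 and 26 against Cl19 and 33 and 24 against 3c3. The 10 genes with the largest differences in both comparisons kept their direction and their call in all of these settings. They were Kcnj8, Kcnmb1, Itpr1, Kcnn4 and Kcnip3 (higher) and Kcnk1, Kcnk13, Trpm7, Kcnd3 and Kcnk5 (lower), picked for the size of their differences. Kcnj8, Kcnmb1 and Itpr1 were retained through primary SMCs alone. For these genes the direction was fixed by selection, and its persistence is no support.

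**Figure D5:**
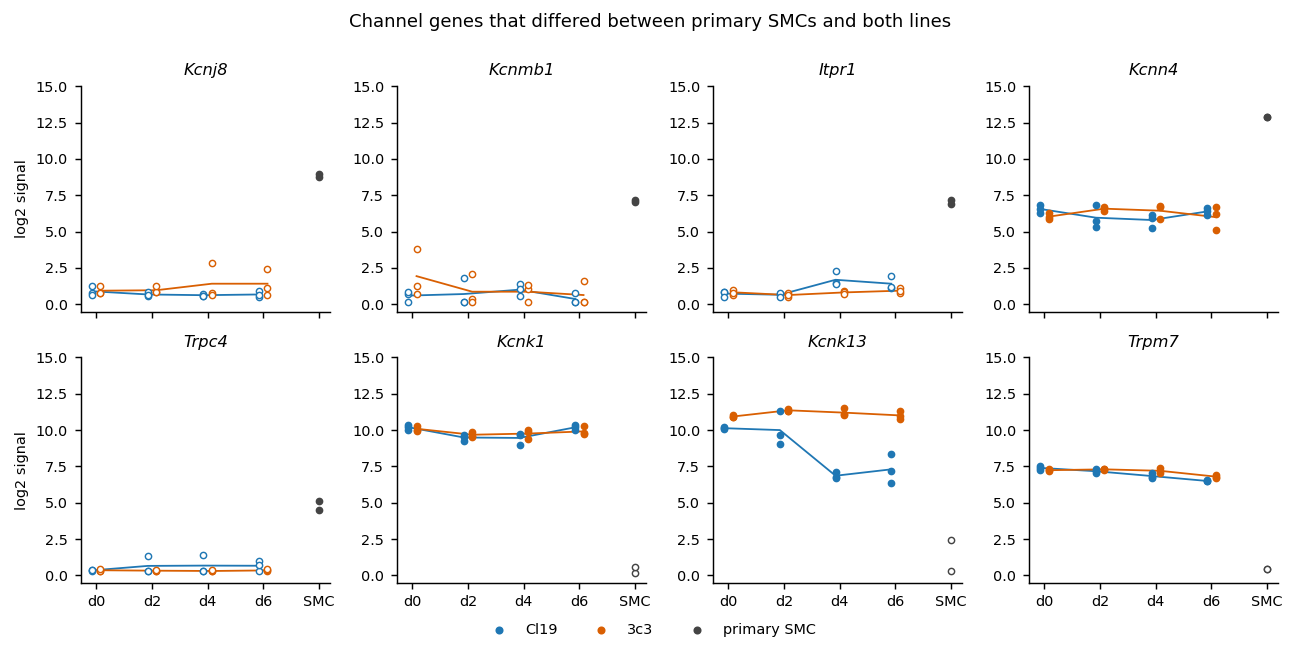
Log2 signal (y axis) of 8 channel genes by day in Cl19 (blue) and 3c3 (orange) and in primary SMCs (SMC, grey), with 1 point an array, lines through group means, and filled points for groups with every array well above background. Kcnj8, Kcnmb1, Itpr1, Kcnn4 and Trpc4 are higher in primary SMCs, and Kcnk1, Kcnk13 and Trpm7 are not above background there.

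Kcnj8 (probe at chr4:180144084-180144143, rn4), the pore of the ATP-sensitive potassium channel of vascular smooth muscle, read 8.94 and 8.75 in primary SMCs and was not above background on any of the 24 arrays of the clones. It was at least 121-fold higher than in Cl19 on d6 and at least 64.9-fold higher than in 3c3. Kcnj8, Kcnmb1, Itpr1 and Trpc4 were all retained through primary SMCs alone, so a difference from the clones was fixed by their selection. Kcnmb1, the smooth muscle beta subunit of the large-conductance calcium-activated potassium channel, read 7.21 and 7.07, at least 37.0-fold and 19.9-fold above the clones on d6. Itpr1, the inositol trisphosphate receptor most abundant in brain and smooth muscle, read 7.18 and 6.93 in primary SMCs. In Cl19 it was above background on 1 of 3 arrays on d6, and its change of 0.68 from d0 (adjusted p = 0.016) lay within dim values and turned in sign with a floor for dim probes (-0.28, adjusted p = 0.64). Without Cl19 replicate 2 the change was 0.47 (adjusted p = 0.12). Trpc4, a receptor-operated cation channel, read 4.49 and 5.11 in primary SMCs and was at background in the clones (at least 7.28-fold and 3.92-fold).

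Kcnn4 was present in all groups. It lay between 6.13 and 6.61 on d6 in Cl19 and between 5.13 and 6.70 in 3c3, and at 12.91 and 12.91 in primary SMCs, 6.52 ± 0.41 and 6.91 ± 0.41 higher, and it did not pass the threshold for a change from d0 in either clone. Kcnip3, which fell in both clones, read 7.28 and 7.28 in primary SMCs, and Cacnb2, which fell in Cl19, read 6.78 and 6.99. Ryr2 read 6.65 and 6.72 in primary SMCs against 2.61 to 3.93 on d6 in the clones. In the submitters' own table the differences were not past the threshold for Ryr2 against Cl19 (0.42, adjusted p = 0.2) and for Cacnb2 against 3c3 (1.97, adjusted p = 0.15).

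Other channel genes were bright in the clones and at background in primary SMCs. Kcnk1, Kcnk13 and Trpm7 each had 1 probe on the array, so a background reading there does not show that the transcript is absent. Kcnk1, a two-pore channel of low activity, read between 9.73 and 10.38 on d6 in the clones and 0.16 and 0.56 in primary SMCs, at least 85.6-fold and 70.6-fold lower. It did not pass the threshold between d0 and d6 in either clone. Kcnk13 was at least 11.6-fold lower than in Cl19 and at least 151-fold lower than in 3c3 on d6. Trpm7 read 0.45 and 0.43 in primary SMCs against 6.48 to 6.92 on d6 in the clones (at least 6.63-fold and 8.17-fold lower). Kcnd3, the pore of a fast transient potassium current, read 0.18 and 0.19 (at least 3.26-fold and 3.05-fold lower), and its second tested probe gave d0 to d6 changes of -2.08 in Cl19 and -2.71 in 3c3 where the brighter one gave -0.02 and 0.07. Ryr1 was also at background there (at least 3.38-fold and 9.13-fold lower). Kcnk5 was above background in primary SMCs, at 4.73 and 4.45, and lower by 5.37 ± 0.33 than in Cl19 and by 8.83 ± 0.33 than in 3c3 on d6.

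A list of 35 channel genes known from smooth muscle held 22 of the 76 genes. Of these, 10 rose and 4 fell in Cl19 by d6, and 5 rose and 2 fell in 3c3. In primary SMCs 12 were higher and 6 lower than in Cl19 on d6 (11 and 5 against 3c3). Among those higher, Itpr1, Kcnj8, Kcnmb1 and Trpc4 were retained through primary SMCs alone, so their direction was fixed by selection. Over all tested probes the shares were 22% and 30.3% in Cl19, 19.7% and 28.6% in 3c3, 32.8% and 38.6% against Cl19, and 33.4% and 38.1% against 3c3, and the primary counts were taken in the scaling on which the split of the 76 genes also rests. Among members not described above were Trpv4, a cation channel opened by swelling and warmth, which read 4.68 to 6.27 on d6 in the clones and 8.18 and 7.84 in primary SMCs (a difference lost in the submitters' own table, 0.34 and -0.15), and Cacna1g, a low-voltage-activated calcium pore, which changed by -1.11 ± 0.48 in Cl19 (adjusted p = 0.06). Another 12 listed genes were on the array but not retained. For 10 of them the brightest probe was not above background on any array, among them Kcnma1, Cacna1c, Kcnj11, Kcna2, Kcna5, Kcnk3, Trpc6 and Ryr3. The pore of the large-conductance potassium channel (Kcnma1) and the main pore of the vascular L-type calcium channel (Cacna1c) were thus at background in primary SMCs. Both were also at background on every day in the clones. A second, dimmer probe of each gene (mean log2 signal 0.20 and 0.68) was not well above background throughout any group either. An undetected signal does not show that a transcript is absent.

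Of the 12 voltage-gated potassium pore genes, 3 rose and 1 fell in Cl19 and 2 rose in 3c3. Of the 7 potassium channel partner genes 1 rose and 1 fell in each clone, and the same count held for the 5 inward rectifier genes. Among 50 tested genes of 70 listed for other ion handling (pumps, exchangers, other channels and connexins), 15 rose and 15 fell in Cl19, and 13 rose and 11 fell in 3c3. Beside these counts, 22% of all tested probes rose and 30.3% fell in Cl19, and 19.7% rose and 28.6% fell in 3c3.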

How the data were processed

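Total RNA was labelled with Cy3 and hybridised to 1-colour Agilent rat whole-genome arrays, 26 in all, and the authors deposited scanner intensities per feature (Feature Extraction 10.1.1.1, probe coordinates on rn4) and a log2 table of the same values. The deposited log2 values equalled log2 of the scanner's processed, background-subtracted intensity (largest difference 5.2e-14), with no scaling between arrays. Here log2 processed signals of 43379 gene features were quantile normalized, as the methods describe, outlier features were left out and features of a probe were averaged. Number of arrays limits the precision. The group means of 9 groups (8 of 3 arrays, primary SMCs of 2) were fitted in 1 model (R 4.3.3, limma 3.58.1, lmFit and eBayes) over 24442 of 41012 probes, those well above background on all arrays of at least 1 group, with Benjamini-Hochberg adjustment. The script was tested on simulated data. The methods call the arrays of a time point biological replicates, but no source used here says that they came from separate cultures, so p-values measure the spread between these arrays, which may be technical.

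Where a group had no array well above background, folds are bounds ("at least"): the bright group's mean against the mean over the dim group's arrays of the lowest signal well above background, or the probe's own signal if higher. Genes were named by a rule: the members of a list of 35 smooth muscle channels, the 6 largest rises and falls in each clone among called genes whose d0 and d6 arrays did not overlap, the 6 smallest adjusted p for a difference between clones, and the 5 largest differences from primary SMCs in each direction (36 genes, of which some are not reported here). Kcnk12, Scnn1g, Kcnh1 and, among the differences between clones, Cacna1b, Trpm2 and Trpm8 were named after their values were seen. Probe positions are those of the array files, and no exon annotation of rn4 was used here. The members, lists and rules were chosen with earlier results of these data known. Replicate numbers mark slides. Same-numbered d0 and d6 arrays deviated together from their group means in all 3 pairs of each clone (lowest correlation 0.11 in Cl19 and 0.29 in 3c3), but over all day pairs 16 of 18 in Cl19 and 18 of 18 in 3c3 exceeded 0.1. Alternatives were scaling to the 75th percentile, the deposited table, normexp correction with an offset of 50, no filter or a floor for dim probes, the mean over a gene's probes, slides as blocks, a fit per clone, the methods' t-test and leaving out each replicate. The Cl19 d2 array was left out as an alternative chosen after seeing the data.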

Additional observations from a re-analysis of the deposited data

Results flagged for a closer look

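The change from d0 to d6 differed between the clones, by the difference of the 2 changes tested in limma, for 20 channel genes. Values are given for 18 of them as the log2 change in Cl19 minus that in 3c3. The difference lay toward Cl19 for Kcnh6 (5.01), Kcnmb4 (4.43), Cacna2d1 (3.46), Cacna1b (3.37), Cacna1h (2.89), Itpr3 (2.67) and Clcn3 (1.63). It lay toward 3c3 for Kcne1 (-5.13), Trpv2 (-4.02), Kcnk5 (-3.89), Cacna1d (-3.60), Trpm2 (-3.33), Kcnh1 (-3.16), Kcnk13 (-2.91), Trpm8 (-2.30), Kcng1 (-1.93), Kcnk2 (-1.48) and Itpr2 (-1.34). For Kcnh6, Cacna1b, Kcne1, Kcng1, Trpm2 and Trpm8 at least 1 of the 4 groups compared had no array well above background, so the size of the difference is not exact and has no rank. Kcnh6 and Cacna1b were retained through Cl19 after d0 alone, so their differences were fixed by selection. Adjusted p ranged from 8.1e-07 for Trpv2 to 0.036 for Itpr3. For Itpr3 the difference missed the threshold without Cl19 replicate 2 (2.42, adjusted p = 0.13) or 3 (2.71, 0.064) and without 3c3 replicate 1 (2.41, 0.15), 2 (2.88, 0.089) or 3 (2.71, 0.12), with scaling to the 75th percentile (2.43, 0.057), in the submitters' own table (2.45, 0.077) and with no filter on dim probes (2.67, 0.061). Kcnk2 missed it without Cl19 replicate 1 (-1.58, 0.053) or 2 (-1.31, 0.11) and without 3c3 replicate 2 (-1.38, 0.053) or 3 (-1.55, 0.05). Kcng1 missed it without Cl19 replicate 3 (-1.25, 0.29) and without 3c3 replicate 1 (-1.70, 0.11) or 2 (-1.85, 0.14), in the submitters' own table (-1.89, 0.061), with normexp (-0.44, 0.084), no filter (-1.93, 0.057) or a floor (-1.25, 0.096). Itpr2 missed it without Cl19 replicate 3 (-1.26, 0.074) and without 3c3 replicate 1 (-1.32, 0.066) or 2 (-1.20, 0.073), in the submitters' own table (-1.30, 0.051) and in the mean over its probes (-1.25, 0.13). Trpm8 missed it with normexp (-0.11, 0.4). Cacna1b missed it without Cl19 replicate 3 (3.18, 0.059) and with a floor (1.77, 0.11), and the mean over the Cacna1d probes gave -0.82 (adjusted p = 0.35). No group held 4 or more arrays, so single arrays were not screened for outliers within a group.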

How the results depend on the processing

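Of 277 alternative counts of channel genes, 260 stayed within 1.5 times the reported count and 17 did not. In the submitters' own log2 table, 2 genes were lower on d6 in 3c3 (6 reported) and 1 was lower on d2 in 3c3 (2 reported), and primary SMCs were higher for 9 and lower for 47 genes against Cl19 and higher for 10 and lower for 43 against 3c3. The count lower on d2 in 3c3 was 4 with normexp correction, 5 with slide as a random block and 4 without the Cl19 d2 array of replicate 1, and the count lower on d6 in 3c3 was 3 by the methods' t-test after Benjamini-Hochberg adjustment. Leaving out each replicate in turn gave 39 to 48 genes changed over time in Cl19 and 23 to 39 in 3c3, 20 to 25 higher and 11 to 14 lower on d6 in Cl19, 19 to 23 and 3 to 6 in 3c3, 7 to 16 higher and 4 to 11 lower on d2 in Cl19, 6 to 14 and 0 to 3 in 3c3, 16 to 22 differing between clones, 25 to 29 higher and 29 to 32 lower in primary SMCs than in Cl19, and 24 to 30 and 25 to 30 than in 3c3. With the replicate block (slide within clone) the counts were 50 over time in Cl19 and 44 in 3c3, 26 higher and 14 lower on d6 in Cl19, 24 and 7 in 3c3, and 29 differing between clones against 20. Under the block 3 changes not called in the reported fit passed the threshold: Cacna1g in Cl19 (-1.11, adjusted p = 0.034), Ryr1 in Cl19 (0.56, 0.022) and Trpv4 in 3c3 (0.62, 0.0057), and no other named call changed. They also passed in other settings, Ryr1 with scaling to the 75th percentile (0.67, 0.027) and in the submitters' table (1.0, 0.00087), Cacna1g in a fit per clone (adjusted p = 0.02) and Trpv4 in the submitters' table (1.04, 0.018).

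Of 1996 values of named genes under alternatives, 1876 kept direction and side of the threshold, 60 missed the threshold, 24 passed it newly, 33 changed sign without a call and 3 turned against a call: Itpr1 in Cl19 with a floor for dim probes (-0.28), and, in the mean over their probes, Kcnd3 in 3c3 (-1.32) and Ryr2 in 3c3 (0.18). The cause was not tested. Signals near background limit Kcnh6, Scnn1g, Kcnk12, Kcng1 and Itpr1, whose changes are bounds or lie within dim values. A difference between clones could not be fitted in a fit per clone.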
